A study of Mus musculus with 96 samples.

Results

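The 10 genes described here are immediate early genes: Fos, Fosb, Jun, Junb, Jund, Egr1, Atf3, Ier2, Dusp1 and Zfp36. Each was taken by its symbol from a table of 54532 genes measured in small pieces of mouse kidney, and all 10 were found. The 93 samples came from untreated male C57BL/6 mice of 6 to 8 weeks, given water and normal chow freely, and fell into 15 groups. The groups were the glomerulus and 14 tubule segments. PTS1, PTS2 and PTS3 are the successive parts of the proximal tubule, from the convolutions next to the glomerulus to the straight end in the outer medulla. The thin limbs were the descending limb of short loops (DTL1), that of long loops in the outer (DTL2) and inner medulla (DTL3), and the ascending thin limb (ATL). MTAL and CTAL are the medullary and cortical thick ascending limb, and DCT is the distal convoluted tubule that follows. CNT, the connecting tubule, leads into the collecting duct, which was taken in the cortex as CCD, in the outer medulla as OMCD and in the inner medulla as IMCD. CCD, CTAL and PTS2 had 5 mice each, OMCD and ATL had 4, and the remaining groups had 3. Each mouse number within a segment was taken as its own mouse, which made 53 mice, an assumption that the labels do not settle. Of these, 36 mice gave 2 or 3 samples, which the labels mark by letters and which are called pieces here. Whether pieces were dissected separately and how long each dissection took are not given in the sources used here. Every sample was microdissected, so no level of undissected kidney stands beside these values.

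Immediate early genes are transcribed within minutes of a stimulus by factors already present in the cell, and their messenger RNAs are short-lived. Growth factors, hormones, stretch, osmotic change and the handling of tissue are all known to raise them, largely through mitogen-activated protein kinases that act on serum response factor and CREB. Fos and Fosb pair with Jun, Junb or Jund to form the transcription factor AP-1. Egr1 and Atf3 are transcription factors of other families, and Ier2 is a nuclear protein. Dusp1 is a phosphatase that switches the kinases off, and Zfp36 (tristetraprolin) binds AU-rich messenger RNAs and speeds their decay, so both act as feedback.

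Upstream sequences are shown for 4 members that stand for the patterns described below. Fos and Zfp36 moved together, and Dusp1 and Jund differed from Fos over segment means. RefSeq start sites (GRCm38.p6) were matched for 8 of the 10 members, all but Egr1 and Ier2. The 200 bases before the start are given 5′ to 3′ on the gene's strand. Capitals mark matches to 3 motifs: the cAMP response element TGACGTCA, its half-site TGACG on either strand, which the full element contains, and the CArG box, to which serum response factor binds.
Fos, chr12:85473690-85473889, plus strand: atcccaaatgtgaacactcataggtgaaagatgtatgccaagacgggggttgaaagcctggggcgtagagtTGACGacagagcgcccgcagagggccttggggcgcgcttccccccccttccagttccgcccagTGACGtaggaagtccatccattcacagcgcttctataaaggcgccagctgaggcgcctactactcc
Zfp36, chr7:28379229-28379428, minus strand: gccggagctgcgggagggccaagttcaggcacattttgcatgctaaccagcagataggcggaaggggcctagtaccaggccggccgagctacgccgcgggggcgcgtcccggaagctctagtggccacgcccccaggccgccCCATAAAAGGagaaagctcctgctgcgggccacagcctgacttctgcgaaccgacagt
Dusp1, chr17:26508473-26508672, minus strand: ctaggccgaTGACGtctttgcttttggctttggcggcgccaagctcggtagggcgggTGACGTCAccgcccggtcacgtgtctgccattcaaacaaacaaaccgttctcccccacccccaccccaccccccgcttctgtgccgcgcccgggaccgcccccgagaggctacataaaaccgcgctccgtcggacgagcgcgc
Jund, chr8:70697539-70697738, plus strand: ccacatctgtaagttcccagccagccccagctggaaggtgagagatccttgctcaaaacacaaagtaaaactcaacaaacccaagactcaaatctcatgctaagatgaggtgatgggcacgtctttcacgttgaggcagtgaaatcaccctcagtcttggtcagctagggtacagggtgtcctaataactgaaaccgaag
The half-site was found in 5 of the 8 members (Fos, Fosb, Junb, Atf3 and Dusp1), against 15.7% of 32851 promoters over the same length. Fos held 2 half-sites, starting at -129 and -66 from the start. The full element was found in Dusp1, starting at -143, and in 1.47% of all promoters. The CArG box was found in Zfp36, starting at -58, and in 1.18% of all promoters. No match to the 3 motifs lay in the windows of Jun and Jund, and none to the AP-1 site TGANTCA, which 5.48% of promoters hold, in any of the 8. A match describes letters only, not a site in use. Bases beyond the 200 were not searched, so a motif not found for a gene here can lie outside its window.

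Abundance was deposited as TPM (the relative abundance of transcripts, scaled for gene length and to the same total in each sample), so levels can be set side by side between genes, and sequencing depth is unknown. The labels were set beside markers of each segment, as mean TPM over mice. The podocyte gene Nphs1 was at 193 in the glomerulus and at most 1.72 elsewhere. Lrp2 was at 34.2 to 107 in PTS1 to PTS3 and at most 4.42 elsewhere, Slc12a1 at 4116 and 6135 in MTAL and CTAL and at most 30.9 elsewhere, and Slc12a3 at 5782 in DCT and at most 8.06 elsewhere. Over mice, Lrp2, Slc34a1, Slc22a6 and Slc5a2 summed to 11785 to 12843 TPM in PTS1, 5416 to 7492 in PTS2 and 75.8 to 87.9 in PTS3. Slc34a1, Slc22a6 and Slc5a2 were thus low in PTS3. Umod and Slc12a1 summed to 21433 to 29586 in MTAL and 40010 to 45349 in CTAL, but also to 1378 to 2245 in DCT and 81 to 394 in DTL1. Aqp2 was at 6186 to 27393 in CNT, CCD, OMCD and IMCD and at most 119 elsewhere. Aqp1 was at 6582 in DTL2 and 11647 in DTL3 and at most 519 elsewhere, and Slc14a2 at 7555 in DTL1 and 2182 in IMCD and at most 13.4 elsewhere. No marker of ATL was listed, so its label was not checked. The samples are bulk tissue, so fewer cells making a transcript and less RNA per cell cannot be told apart. The single sample of DTL3 mouse 2 stood far above the other DTL3 samples in 9 of the 10 members, and results that rest on it are given with and without it.

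The spread of the members rose from pieces to mice to segments. On the log2(TPM + 1) scale, the SD between pieces of a mouse had a median of 0.53 over the 10 members, the SD between mice of a segment 0.93, and the SD between segment means 1.65. Over all 33793 genes tested the same medians were 0.30, 0.35 and 0.63, and over the 9505 genes averaging at least 10 TPM they were 0.22, 0.26 and 0.76. The SD between mice exceeded that between pieces in all 10 members. The SD between segments exceeded that between mice in 9, all but Fosb. The SD between mice is that of mouse means and still holds part of the spread between pieces.

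**Figure D1:**
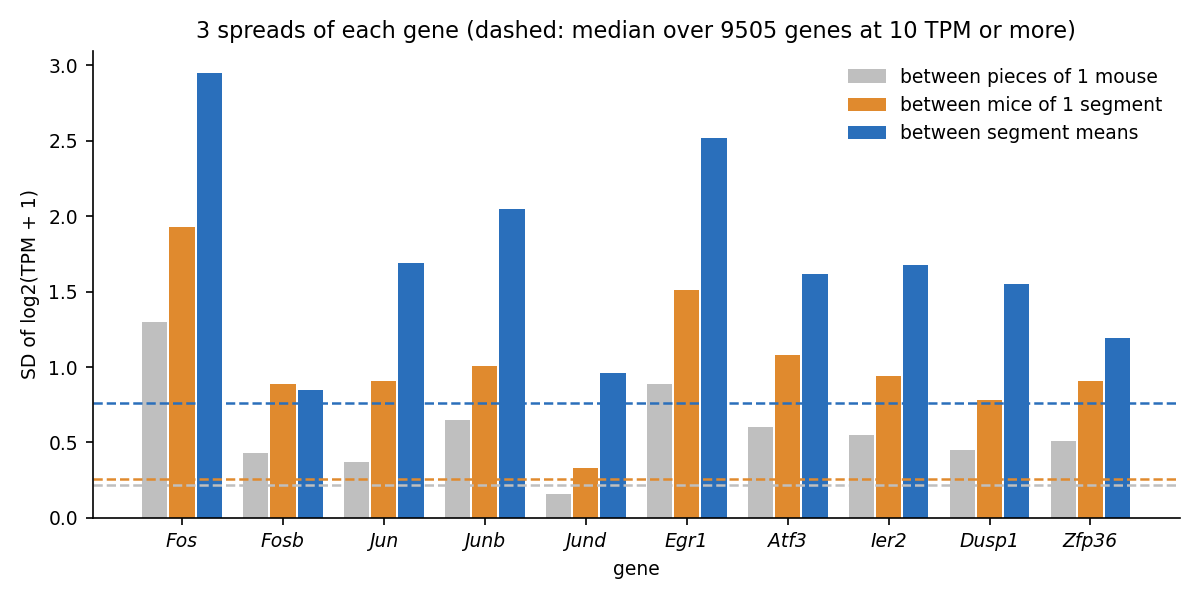
SD of log2(TPM + 1) for each member at 3 levels: pieces of 1 mouse (grey), mice of 1 segment (orange) and the 15 segment means (blue). Dashed lines mark the medians over 9505 genes averaging at least 10 TPM; Fos has the tallest bar at each level (1.3, 1.93 and 2.95), and Jund the shortest grey and orange bars (0.16 and 0.33).

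Fos varied most at every level. Its SD was 1.3 between pieces, 1.93 between mice and 2.95 between segments, and its SD between mice was above that of 99.9% of the 9505 genes. Egr1 came next, with SDs of 0.89, 1.51 and 2.52. Jund varied least between pieces (0.16) and between mice (0.33), and its SD between pieces was above that of 20.6% of the 9505 genes. Fosb had an SD of 0.89 between mice and 0.85 between segments, and it was the least abundant member, at a mean of 2.20 TPM over the 53 mice. Without DTL3 mouse 2 the SD between mice was 1.53 for Fos, 0.63 for Fosb and 0.75 as the median of the members. In that set the segment SD exceeded the mouse SD in all 10 members, Fosb included at 0.76. It also did so in all 10 without DTL3 mouse 1, DTL3 mouse 3, CNT mouse 2 or CCD mouse 5, and with a pseudocount of 0.1.

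In a nested analysis of variance, segments took the largest share of the variance in 9 of the 10 members, all but Fosb. The share of segments ran from 39.5% in Fosb to 89.1% in Jund, that of mice from 8.22% in Jund to 44.3% in Fosb, and that of pieces from 2.64% in Jund to 16.2% in Fosb. The median share of mice was 20% for the members, against 4.48% for genes averaging at least 10 TPM. Without DTL3 mouse 2, segments took the largest share in all 10, Fosb included at 52.2% against 27.5% for mice, and the median share of mice was 11.5%. Both kinds of difference were tested with limma moderated F-tests, adjusted over all genes. All 10 members differed among the 15 groups, where 93.9% of all genes did. All 10 also differed between mice of 1 segment by more than pieces of 1 mouse did, with adjusted p from 1.53e-10 for Jun to 0.000248 for Fos, where 52.1% of all genes passed.

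Fos, the best known AP-1 partner of the Jun proteins, was near 0 in the proximal tubule and high in the cortical collecting system. It was at most 2.34 TPM in the 19 proximal tubule samples and was listed at 0 in 5 of the 6 PTS3 samples. In CCD it was 127 TPM in mouse 1, 1900.0 in mouse 2, 837 and 1023 in the pieces of mouse 3, 827 in mouse 4, and 154 and 177 in the pieces of mouse 5. In CNT the lowest of 6 samples held 33.5 TPM, the median 406 and the highest 1243. Every CNT and CCD sample thus lay above every proximal tubule sample. The mean over mice was 790 ± 722 TPM in CCD (SD, n = 5), 531 ± 423 in CNT (n = 3), 277 ± 176 in the glomerulus (n = 3), 169 ± 155 in OMCD (n = 4), 108 ± 108 in DCT (n = 3), 85.4 ± 80.0 in IMCD (n = 3) and 19.8 ± 17.3 in CTAL (n = 5). DTL3, at 893 ± 1536 (n = 3), rested on mouse 2. When all 15 groups were ordered by mean log2(TPM + 1), each overlapped the next except PTS1, which lay above PTS3.

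**Figure D2:**
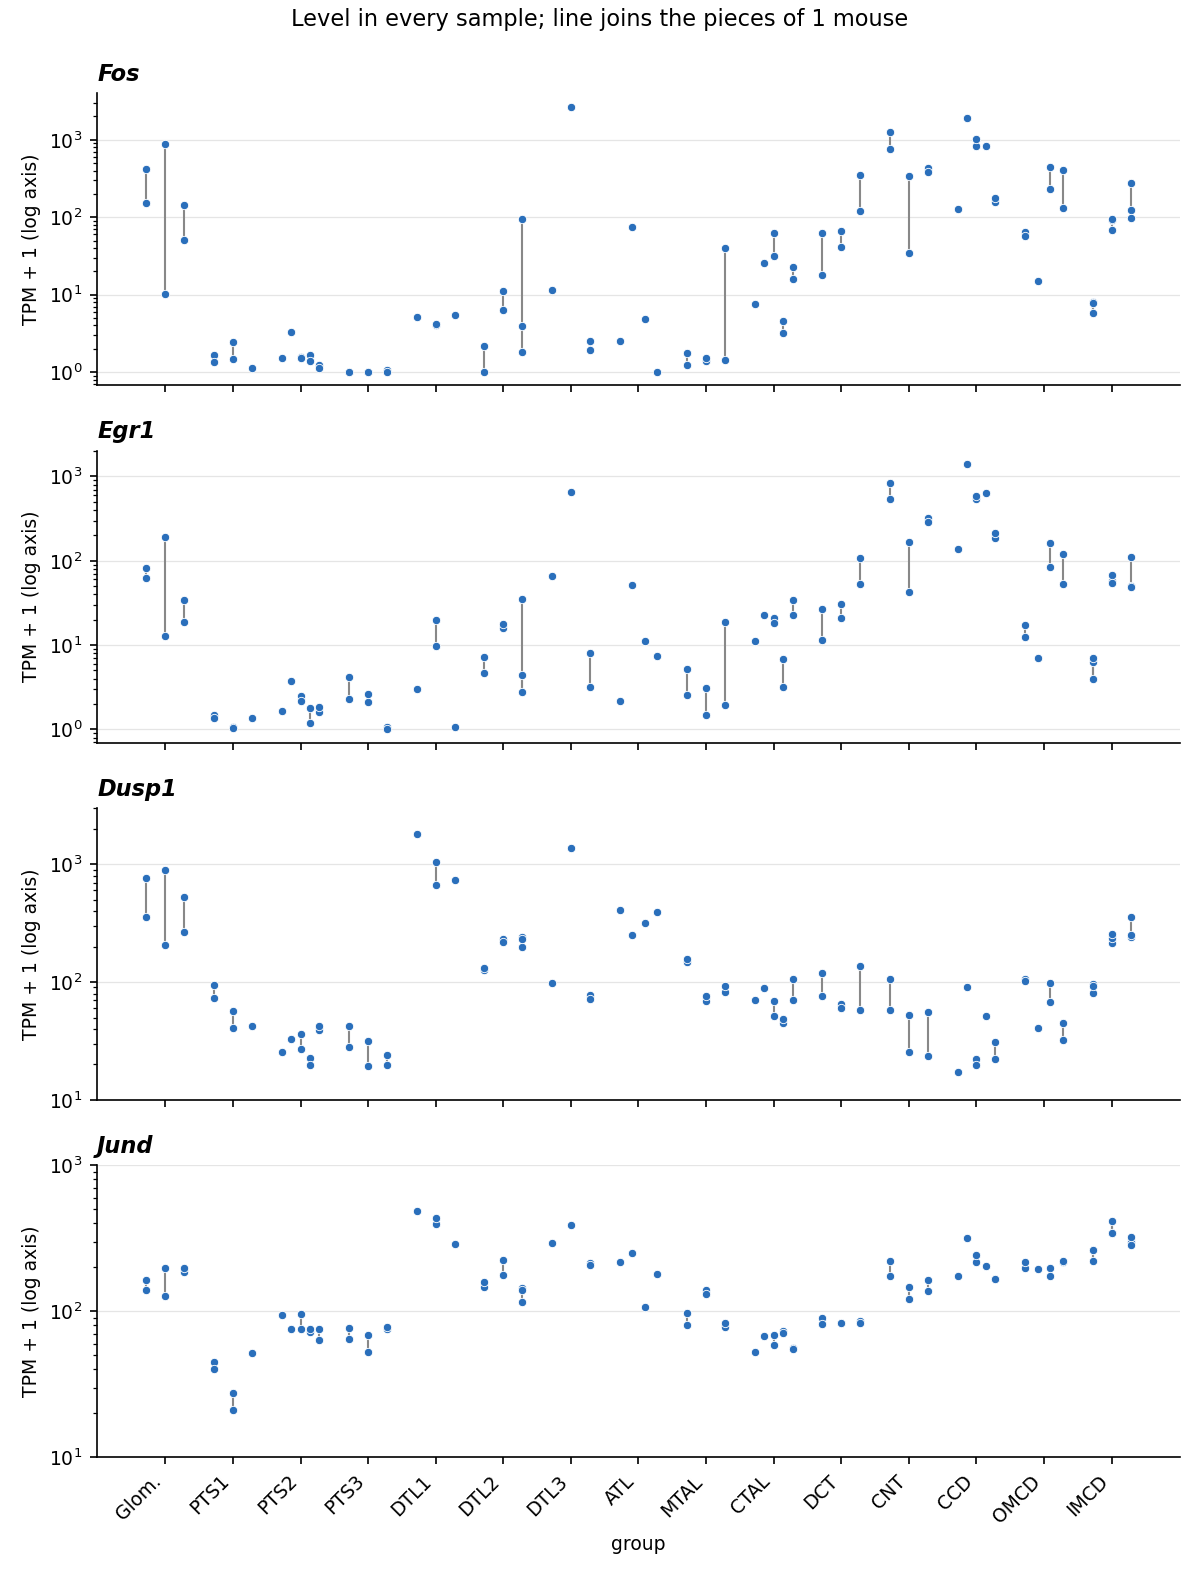
TPM + 1 on a log axis for Fos, Egr1, Dusp1 and Jund in each of the 93 samples by group; a line joins the pieces of 1 mouse. Fos and Egr1 are high in CNT and CCD and near 0 in PTS1 to PTS3, Dusp1 is highest in DTL1, and Jund keeps within 20.1 to 488 TPM.

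Most samples of the thin limbs and MTAL held less Fos than any CNT or CCD sample. In DTL1 Fos was 4.12 TPM in mouse 1, 3.09 and 3.12 in the pieces of mouse 3, and 4.44 in mouse 5. In DTL2 the lowest of 7 samples was listed at 0, the median was 2.92 and the highest 94.0, and in MTAL the lowest of 6 was 0.22, the median 0.49 and the highest 38.5. The DTL1 samples lay close together, while DTL2 and MTAL each held 1 sample far above the others. In CTAL the 8 samples ran from 2.16 to 62.2 TPM with a median of 18.4. ATL held 1.54, 73.5 and 3.86 TPM in mice 2, 3 and 4 and was listed at 0 in mouse 6. DTL3 held 10.3 in mouse 1, 2666 in mouse 2, and 1.53 and 0.91 in the pieces of mouse 3. Mouse 2 of DTL3 had the highest Fos of all 93 samples.

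Fosb, a close relative of Fos, was low everywhere. It was listed at 0 in all 6 PTS3 samples and in 15 of the 93 samples. It passed 10 TPM in 3 samples: 43.2 in DTL3 mouse 2, 17.9 in CCD mouse 2 and 12.2 in CNT mouse 1. These mice were also the highest of their segments in Fos. The mean was 5.85 ± 7.02 TPM in CCD (n = 5), 4.79 ± 3.98 in CNT (n = 3) and 2.78 ± 1.38 in the glomerulus (n = 3), groups that overlapped. The DTL3 mean was 14.8 ± 24.6 (n = 3), with 0.47 and 0.80 in mice 1 and 3.

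The 3 Jun proteins had different maps. Jun was as high in the glomerulus, at 274 ± 9.80 TPM (n = 3), as in CCD, at 281 ± 220 (n = 5), and the 2 groups overlapped. It was 150 ± 60.1 in CNT (n = 3), 43.0 ± 10.4 in CTAL (n = 5), 10.1 ± 11.8 in ATL (n = 4) and 3.81 ± 1.23 in PTS3 (n = 3). In DTL3 it was 56.1 ± 72.4 (n = 3), with 18.1 and 10.4 TPM in mice 1 and 3. Jun in IMCD was 3.36, 2.52 and 1.71 TPM in the pieces of mouse 1, against 24.9 to 56.1 in the 6 pieces of mice 2 and 3. Thus the pieces of IMCD mouse 1 stayed together and apart from those of the other mice. They stood apart in some other measures too. In the pieces of mouse 1 heat shock genes summed to 2150 to 2938 TPM, against 3616 to 4956 in the 6 pieces, tubule injury genes, most of them Cryab, to 7140 to 10008 against 13811 to 23484, and upstream regulators to 617 to 821 against 881 to 980. Mitochondrial transcripts took 3.5%, 1.9% and 4.38% of the TPM in mouse 1, against 1.62% to 2% in the 6 pieces, a range that held piece b of mouse 1. The part of these measures in the level of Jun was not tested.

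Junb was highest in CCD, at 779 ± 519 TPM (n = 5), where its lowest sample held 316 TPM, its median 671 and its highest 1594. It was 293 ± 169 in IMCD (n = 3), 282 ± 234 in CNT (n = 3) and 230 ± 144 in OMCD (n = 4), and these groups overlapped. The DTL3 mean, 695 ± 1063 TPM (n = 3), rested on mouse 2, and mice 1 and 3 held 114 and 49.8. In the 19 proximal tubule samples it lay between 3.08 and 9.62 TPM.

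Jund, which is present in resting cells of many tissues, varied least between pieces and between mice on the log2 scale. Between segments Fosb had the smaller SD on that scale (0.85 against 0.96 for Jund). It was highest in DTL1, with 488 TPM in mouse 1, 393 and 433 in the pieces of mouse 3 and 290 in mouse 5. IMCD followed at 306 ± 59.7 (n = 3) and DTL3 at 298 ± 91.4 (n = 3). The lowest group was PTS1, at 38.5 ± 13.8 (n = 3), below CTAL at 61.3 ± 8.15 (n = 5) without overlap. In DCT the 6 samples lay between 80.3 and 88.4 TPM.

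**Figure D3:**
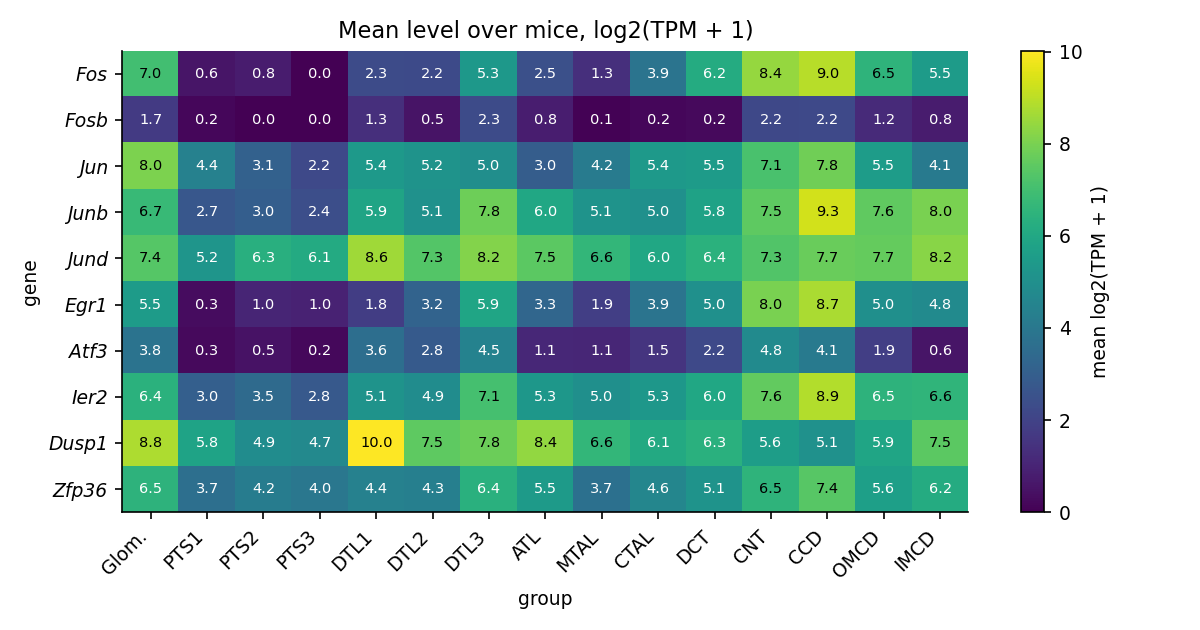
Mean log2(TPM + 1) over the mice of each of the 15 groups (columns) for the 10 members (rows), on a colour scale from 0. The darkest cell of each of the 10 rows is PTS1 or PTS3; CCD and CNT are the brightest cells for Fos, Egr1, Ier2 and Zfp36, and DTL1 is the brightest for Dusp1 and Jund (10.02 and 8.60).

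Egr1, a zinc finger transcription factor, followed Fos most closely over segments. It was 589 ± 505 TPM in CCD (n = 5), where mouse 2 held 1403 and mouse 1 held 138, and 365 ± 299 in CNT (n = 3). DTL3 held 240 ± 357 (n = 3), with 65.3 and 4.62 TPM in mice 1 and 3. In OMCD it was 57.3 ± 56.6 (n = 4), and the 19 proximal tubule samples held at most 3.23 TPM. Atf3, a stress-responsive transcription factor, was highest in CNT on the log2 scale, at 29.5 ± 9.87 TPM (n = 3), and was 16.7 ± 2.89 in CCD (n = 5). The DTL3 mean, 114 ± 189 TPM (n = 3), rested on mouse 2. The 5 CCD mice thus spread less in Atf3 (SD of 0.26 on the log2 scale) than in Fos (1.69). Ier2 was 570 ± 395 TPM in CCD (n = 5) and 250 ± 182 in CNT (n = 3), and its 19 proximal tubule samples lay between 1.32 and 13.7 TPM. Its DTL3 mean, 368 ± 545 (n = 3), also rested on mouse 2, with 74.6 and 31.3 in mice 1 and 3.

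The 2 feedback genes differed from each other. Zfp36 followed Fos, at 216 ± 170 TPM in CCD (n = 5), 112 ± 75.1 in CNT (n = 3), 104 ± 25.3 in the glomerulus (n = 3) and 12.6 ± 6.21 in PTS1 (n = 3). In DTL3 it was 211 ± 313 (n = 3), with 30.6 and 29.9 TPM in mice 1 and 3. Dusp1 did not follow Fos over segments. It was highest in DTL1, with 1801 TPM in mouse 1, 661 and 1050 in the pieces of mouse 3 and 737 in mouse 5. On the log2 scale the glomerulus (504 ± 91.7 TPM, n = 3) and ATL (342 ± 71.9, n = 4) followed, while the mean TPM of DTL3 (516 ± 747, n = 3) rested on mouse 2, and the DTL1 mice did not overlap with the glomerulus. CCD held 40.6 ± 31.0 TPM (n = 5), close to PTS2 at 29.4 ± 7.44 (n = 5), and these groups overlapped. Across the 15 segment means, as a description, Pearson's r with Fos was 0.97 for Egr1, 0.94 for Ier2, 0.91 for Zfp36, 0.88 for Junb, 0.82 for Jun, 0.77 for Fosb, 0.70 for Atf3, 0.47 for Jund and 0.00 for Dusp1. Each of these r moved by less than 0.1 without DTL3 mouse 2.

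Counted by the highest mean of log2(TPM + 1), 5 of the 10 members peaked in CCD (Fos, Junb, Egr1, Ier2 and Zfp36), 2 in DTL1 (Jund and Dusp1), and 1 each in DTL3 (Fosb), CNT (Atf3) and the glomerulus (Jun). Of all genes tested, 1.96% peaked in CCD and 36.8% in DTL1. Without DTL3 mouse 2, Fosb peaked in CCD too, which made 6. By mean TPM over all mice, Fos, Fosb and Atf3 peaked in DTL3 and Jun in CCD, and without DTL3 mouse 2 CCD held 7 of the peaks, Fos, Fosb and Jun among them. DTL1 and glomerulus mice held 26044 to 28014 and 23404 to 28424 genes at 1 TPM or more, against 22250 to 23572 in DTL3, 13532 to 24647 in ATL, 13375 to 13813 in CCD and 11474 to 13811 in PTS1 to PTS3. The 7 endothelial markers summed to 3181 to 4290 TPM in DTL1 and 4266 to 4289 in the glomerulus, against 1196 to 2204 in DTL2, 769 to 1805 in DTL3 and 157 to 254 in CCD. Their part in the levels of the members was not tested.

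Contrasts between parts of the kidney were read from 1 limma fit over all 53 mice, and a gene was called at an adjusted p under 0.05 and a log2 difference of at least 1. The fit holds 1 SD per gene for all 15 groups, so a group with a wide spread widens the SE of every contrast. For Fos the SD between mice ran from 0.02 in PTS3 to 5.36 in DTL3. The proximal tubule was lower than the other 11 tubule segments in all 10 members, where 23.8% of all genes were called in either direction. The difference was -4.38 (SE 0.63, adjusted p 6.01e-08) in Fos, -3.95 in Junb, -3.89 in Egr1, -3.10 in Ier2 and -1.53 in Jund. Its median over the members was -2.13, and over all genes -0.41. Fosb lay at the threshold, at -1.0 (SE 0.30, adjusted p 0.00294), and it missed it when any of 14 of the 53 mice was left out, DTL3 mouse 2 among them at -0.86, and with mouse number as a replicate block, at -0.97, which left 9 members called. With median ratio rescaling 7 members were called, all but Fosb, Jund and Zfp36, and with quantile normalization 8, all but Fosb and Zfp36. Markers of some other cell types were lower in the same contrast. All 7 endothelial markers were called as lower (median -2.03), among them Emcn at -2.67 and Pecam1 at -2.29, and 6 of 7 leukocyte markers (median -1.47), all but Cd74 at -0.98. Of the fibroblast and muscle markers 2 of 7 were (median -0.70), and of the erythroid markers none (0 of 5, median -0.09). Over mice the endothelial markers summed to 37.9 to 161 TPM in PTS1 to PTS3, against 35.2 to 4290 in the other tubule segments, and the leukocyte markers to 13.8 to 110 against 5.24 to 1084, ranges that overlapped. Heat shock genes were called in both directions. Hspa1b (-4.80), Hspa1a (-4.32) and Hsph1 (-1.71) were among the lower, and Hspe1 (1.48) was among the higher. Most of the tubule injury genes tested were called as lower, Spp1 (-3.83) and Cryab (-3.39) among them, while Havcr1 was called as higher (1.02). The part of these markers and genes in the members' differences was not tested.

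The glomerulus was higher than the tubule in 5 members, where 35.6% of all genes were called. These were Jun, at 3.18 (SE 0.51, adjusted p 8.45e-07), Fos at 3.10 (SE 1.08, adjusted p 0.00987), Dusp1 at 2.19, Atf3 at 1.73 and Zfp36 at 1.35. The median difference was 1.5 over the members and 0.69 over all genes. The count fell to 2, Jun and Dusp1, without glomerulus mouse 1. It rose to 7 without DTL3 mouse 2, with Junb (1.05) and Egr1 (1.76) added to the 5. With quantile normalization it was 3, without Atf3 and Zfp36. In the same contrast 6 of 7 endothelial, 5 of 7 leukocyte and 5 of 7 fibroblast and muscle markers were higher, and their part in the members' differences was not tested.

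The medulla differed from the cortex in both directions. The inner medulla (DTL3, ATL and IMCD) was higher than the cortical segments in Dusp1 (2.25, SE 0.28, adjusted p 2.69e-09), Junb (1.68) and Jund (1.48) and lower in Jun (-1.56), so 4 members were called, where 21.7% of all genes were. The outer medulla (PTS3, DTL1, DTL2, MTAL and OMCD) was lower in Fos (-2.31, SE 0.59, adjusted p 0.000756), Egr1 (-1.94) and Jun (-1.07) and higher in Dusp1 (1.34), again 4 members, where 9.63% of all genes were called. The thin limbs were higher than the other tubule segments in Dusp1 (2.58, SE 0.24, adjusted p 6.50e-13), Atf3 (1.29) and Jund (1.14), 3 members, where 29.7% of all genes were called. Atf3 was not called there with a pseudocount of 5 or quantile normalization, nor Jund with median ratio rescaling. Without DTL3 mouse 2, Atf3 was at 0.80 there and was not called, while Fos was called as lower, at -1.88 (SE 0.49, adjusted p 0.000591). In the same set Fos was also called as lower in the inner medulla, at -1.36 (SE 0.58, adjusted p 0.033). The median over all genes was 0.45, 0.36 and 0.65 in these 3 contrasts, and 0.53, -0.60 and 0.31 over the members. Of 7 endothelial markers, 1 was higher and 1 lower in the inner medulla, 6 were higher in the outer medulla and 6 in the thin limbs. Of 7 leukocyte markers, 6, 2 and 2 were lower, all 3 intercalated markers were lower in each contrast, and of 11 heat shock genes 5, 3 and 5 were higher. The part of these in the members' differences was not tested.

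Neighbouring segments were tested after the data were examined. No member (0 of 10) was called by limma in 4 steps: from PTS2 to PTS3, MTAL to CTAL, CTAL to DCT and CNT to CCD, where 4.70%, 3.15%, 4.35% and 1.12% of all genes were. Fos was higher by 2.51 in CTAL than in MTAL (SE 1.32, adjusted p 0.421) and by 2.29 in DCT than in CTAL (SE 1.32, adjusted p 0.532), so differences of this size in Fos did not pass beside its spread between mice. From PTS1 to PTS2, 1 member was called (9.57% of all genes), Jund at 1.08, and none without PTS1 mouse 2, with a pseudocount of 5, with median ratio rescaling or with quantile normalization. Over mice, the mitochondrial share was 5.62% to 8.27% in PTS1 against 0.841% to 2.29% in PTS2. Tubule injury genes summed to 2074 to 3193 against 203 to 302 TPM, a sum that 1 abundant gene can set and that was not read as injury. Genes at 1 TPM or more numbered 12697 to 13811 against 11474 to 11690. The part of these measures in the Jund difference was not tested. From DCT to CNT, 1 was called (5.22% of all genes), Atf3 at 2.58 (SE 0.83, adjusted p 0.0336), and none without CNT mouse 1, CNT mouse 3, DCT mouse 1 or DCT mouse 2. Atf3 was also not called there with no filter, with pseudocounts of 0.1 or 5, or with either other scaling. Over mice, fibroblast and muscle markers summed to 63.9 to 80.5 TPM in CNT against 3.54 to 10.9 in DCT, and intercalated markers to 2130 to 2186 against 396 to 402; their part in the Atf3 difference was not tested. Junb and Jund joined Atf3 without CNT mouse 2, which made 3, and Fosb joined it without CCD mouse 2, DTL3 mouse 1 or DTL3 mouse 2, which made 2.

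From PTS3 to DTL1, 6 of the 10 members were higher, a share no larger than the 65.5% of all genes called in that step. They were led by Dusp1 at 5.29 (SE 0.60, adjusted p 2.54e-10), with Junb at 3.48, Atf3 at 3.40, Jun at 3.18, Jund at 2.5 and Ier2 at 2.34. Fos (2.27, SE 1.48, adjusted p 0.151) and Fosb (1.34, SE 0.69, adjusted p 0.0718) were not called, though their mice did not overlap. Fos was 3.10 to 4.44 TPM in DTL1 against at most 0.025 in PTS3, and Fosb 1.03 to 2.71 against 0. Without DTL3 mouse 2 Fosb was called (adjusted p 0.0137) and Fos was not (0.0713). From PTS3 to DTL2 the same 6 were higher (40.0% of all genes), with Jun at 2.94 and Dusp1 at 2.82. With quantile normalization only Dusp1 of these 6 was called (1 of 6), and median ratio rescaling left 4, Jun, Junb, Atf3 and Dusp1. From PTS3 to DTL1 these scalings left 4 (Jun, Junb, Jund and Dusp1) and 5 (all but Ier2). The median over all genes was 1.33 and 0.71 in these steps. Over mice, genes at 1 TPM or more numbered 11494 to 11748 in PTS3, 26044 to 28014 in DTL1 and 19776 to 20812 in DTL2. Endothelial markers summed to 80.3 to 161, 3181 to 4290 and 1196 to 2204 TPM in these groups, and the mitochondrial share was 9.14% to 12.6%, 0.903% to 1.42% and 2.5% to 2.6%. Their part in the members' differences was not tested. DTL2 was lower than DTL1 in Dusp1 (-2.47, SE 0.60, adjusted p 0.000938) and Jund (-1.29), 2 members, where 28.2% of all genes were called.

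The steps to and from DTL3 rested on mouse 2. From DTL2 to DTL3, 3 members were higher (9.58% of all genes), Junb at 2.72, Ier2 at 2.20 and Zfp36 at 2.05. Without DTL3 mouse 2 no member was called (0 of 10), and these differences were 1.16, 0.76 and 0.65. The count was 8 without DTL3 mouse 3 and 5 without DTL3 mouse 1, these 3 genes included, and 1, Junb, without DTL2 mouse 1 or DTL2 mouse 3. From DTL3 to ATL, 4 members were lower (14.6% of all genes), Atf3 at -3.36, Jun at -2.01, Junb at -1.86 and Ier2 at -1.75. None of these was called without DTL3 mouse 2 (0 of 4): Atf3 was at -1.40 (adjusted p 0.0903), Jun at -0.93, Junb at -0.30 and Ier2 at -0.31. The 1 member called in that set was Dusp1, which was higher in ATL, at 1.98 (SE 0.48, adjusted p 0.00132). Without ATL mouse 2 the 1 member called was Atf3. Without ATL mouse 4 or ATL mouse 6, and with mouse number as a replicate block, Atf3 and Jun were called, 2 members. Without DTL3 mouse 3 Fos, Fosb and Egr1 joined the 4, which made 7. Over mice, endothelial markers summed to 213 to 268 TPM in ATL against 769 to 1805 in DTL3. Thick limb markers summed to 11.9 to 37.4 against 188 to 330 TPM. Heat shock genes overlapped, at 2615 to 3348 against 1959 to 3214 TPM. The part of these measures in the members' differences was not tested.

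From ATL to MTAL, Dusp1 and Zfp36 were lower, both at -1.77, 2 members where 28.1% of all genes were called. The count was 1, Dusp1, without MTAL mouse 1 or MTAL mouse 3. Over mice, heat shock genes summed to 840 to 1638 TPM in MTAL against 2615 to 3348 in ATL. Tubule injury genes summed to 3904 to 5829 against 9279 to 12104 TPM. The mitochondrial share was 5.34% to 8.46% against 0.708% to 2.82%. Endothelial markers overlapped, at 194 to 397 against 213 to 268 TPM. The part of these measures in the members' differences was not tested. The 4 ATL samples fell into 2 sets: mice 2 and 3 held 13949 and 13532 genes at 1 TPM or more, and mice 4 and 6 held 23465 and 24647, against 12574 to 12870 in MTAL and 22250 to 23572 in DTL3. With ATL mice 2 and 3 alone, Zfp36 and Jund were called between ATL and MTAL, and with mice 4 and 6 alone Dusp1 was. With mice 4 and 6 alone, 6 members were called between DTL3 and ATL, Fos and Jund beside the 4, and with mice 2 and 3 alone 2 were, Atf3 and Fosb. The part of the number of genes in these differences was not tested. Along the collecting duct, OMCD was lower than CCD in 6 members, where 12.1% of all genes were called. These were Egr1 at -3.75 (SE 0.95, adjusted p 0.00284), Ier2 at -2.40, Jun at -2.29, Atf3 at -2.25, Zfp36 at -1.79 and Junb at -1.78. Fos was at -2.46 (SE 1.21, adjusted p 0.124), and at the same value with an SE of 0.96 (adjusted p 0.0489) without DTL3 mouse 2, where it was called. Jund was at -0.08. The median was -2.02 over the members and 0.30 over all genes, and 3 members, Egr1, Ier2 and Jun, were called without OMCD mouse 2. Over mice, OMCD held 17139 to 20648 genes at 1 TPM or more, against 13375 to 13813 in CCD. Marker sums that were higher in OMCD without overlap were those of principal cells (24368 to 41360 TPM against 17198 to 22248), intercalated cells (2108 to 2860 against 1634 to 2086), endothelium (436 to 587 against 157 to 254) and podocytes (13.4 to 16.1 against 5.1 to 7.73). Lower without overlap were those of fibroblasts and muscle (7.47 to 15.9 against 56.6 to 64.3), the thick limb (0.655 to 5.98 against 15 to 41.1) and the proximal tubule (0.79 to 1.54 against 9.01 to 54.8), and the mitochondrial share (1.72% to 1.87% against 2.35% to 2.54%). Leukocyte markers overlapped, at 122 to 538 against 145 to 376 TPM. The part of these measures in the members' differences was not tested. From OMCD to IMCD, 1 member was called (18.6% of all genes), Dusp1 at 1.59 (SE 0.56, adjusted p 0.0264), and none without OMCD mouse 2 or OMCD mouse 4, or with no filter. Over mice, intercalated markers summed to 0.333 to 4.27 TPM in IMCD against 2108 to 2860 in OMCD, leukocyte markers to 5.24 to 6.02 against 122 to 538, and endothelial markers to 35.2 to 327 against 436 to 587. Heat shock genes summed to 2608 to 4498 against 1236 to 1338 and tubule injury genes to 8368 to 20131 against 1566 to 2647. Their part in the Dusp1 difference was not tested.

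Mice of 1 segment that were high in Fos were high in most other members. Each mouse was expressed as its deviation from the mean of its segment, and the 9 other members were compared with Fos over the 53 mice with two-sided permutation tests (100000 resamples, adjusted over the 9). Pearson's r was 0.87 for Ier2, 0.86 for Egr1, 0.85 for Junb, 0.83 for Zfp36 and 0.81 for Jun, each at a raw p of 1e-05, the smallest these permutations can give, and an adjusted p of 1.8e-05. Spearman's rho was 0.80, 0.83, 0.77, 0.74 and 0.75 for these genes, with adjusted permutation p of 1.8e-05, and 2.57e-05 for Jun. Without the 2 mice farthest from the median of Fos, both of DTL3, r was 0.78, 0.81, 0.76, 0.75 and 0.75. Thus these 5 relations held without DTL3 mouse 2.

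Pearson's r was lower for the other 4 members, between 0.38 and 0.76, though the rho of Fosb equalled that of Jun, and differences between these relations were not tested. For Atf3 r was 0.76 (rho 0.66, adjusted permutation p 7.71e-05 and 2.57e-05) and for Fosb 0.75 (rho 0.75, adjusted permutation p 7.5e-05 and 1.8e-05), and r was 0.59 and 0.60 without the 2 extreme mice. For Dusp1 r was 0.64 and rho 0.46 (permutation p 0.00584 and 0.0095, adjusted 0.00657 and 0.0107), and r was 0.41 without them. For Jund r was 0.38 (adjusted permutation p 0.0479), rho was 0.28 (adjusted permutation p 0.0862), and r was 0.25 without the 2 mice, so Jund passed on Pearson's r alone and the relation rested on those mice. With DTL3 mouse 2 alone left out, r ran from 0.73 for Zfp36 to 0.83 for Egr1 among the first 5 members, and was 0.57 for Atf3, 0.56 for Fosb, 0.38 for Dusp1 and 0.28 for Jund.

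**Figure D4:**
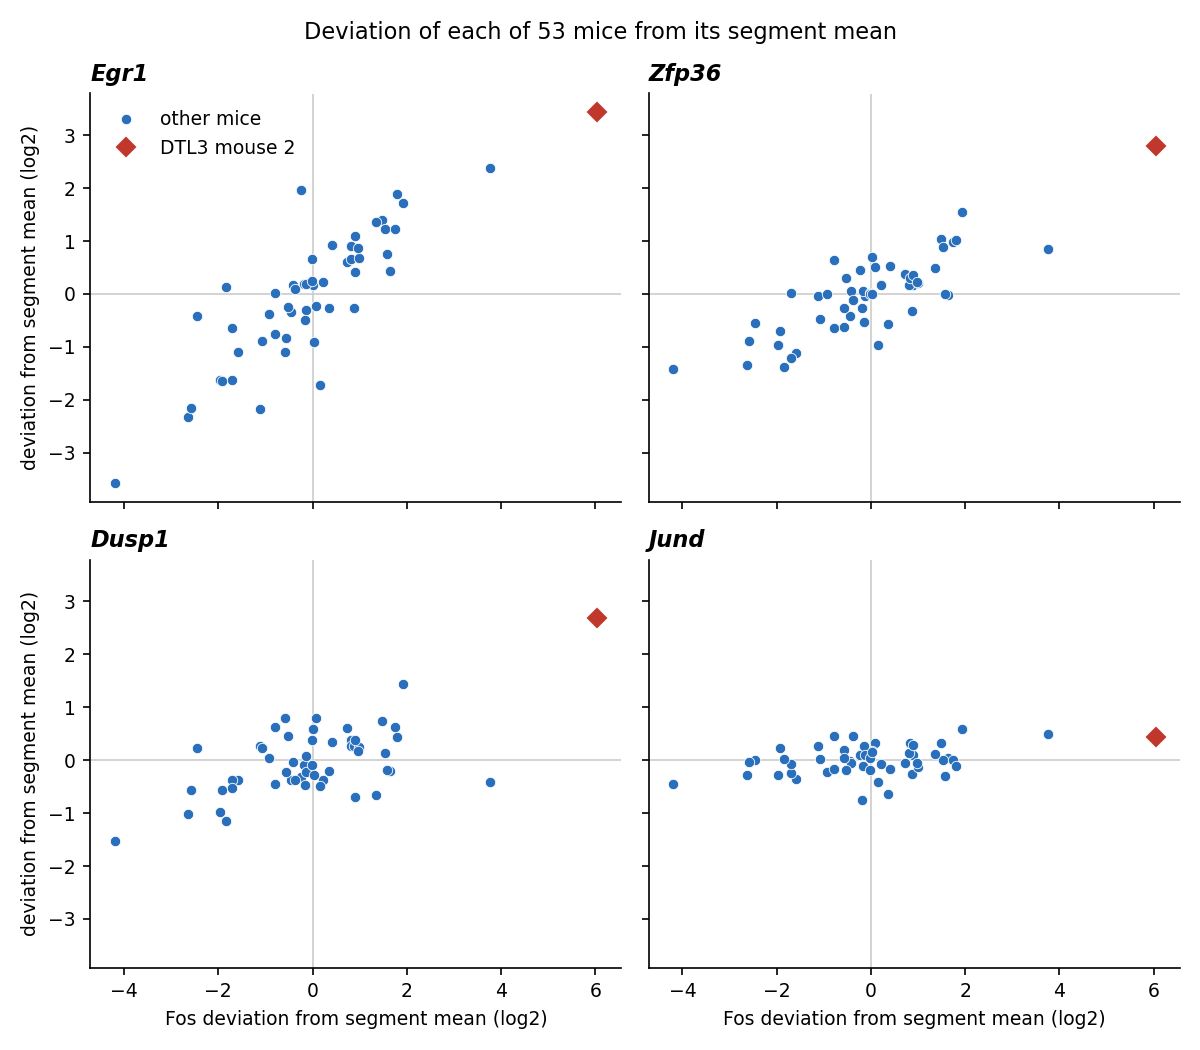
Deviation of each of the 53 mice from its segment mean on the log2(TPM + 1) scale, Fos on the x axis and Egr1, Zfp36, Dusp1 or Jund on the y axis; the red diamond is DTL3 mouse 2. Egr1 and Zfp36 rise with Fos (r of 0.86 and 0.83), Dusp1 less (0.64), and Jund stays within a narrow band (0.38).

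DTL3 mouse 2, the single sample that stood farthest apart, held 2666 TPM of Fos, 1922 of Junb, 1378 of Dusp1, 997 of Ier2, 650 of Egr1, 572 of Zfp36, 332 of Atf3, 140 of Jun and 43.2 of Fosb. The highest mean of the other DTL3 mice was 10.3, 114, 96.3, 74.6, 65.3, 30.6, 5.69, 18.1 and 0.80 TPM for these genes in turn. On the log2 scale the mouse lay above the mean of the others by 9.06 in Fos and 0.66 in Jund, and by a median of 4.5 over the members. It was higher by at least 1 in 9 of the 10 members, and in 6.28% of all genes. Among 36 other early-response genes 13 were higher by at least 1, among 20 upstream regulators none (0 of 20), and among 11 heat shock genes 1, Hspa1a, at 592 TPM against at most 86.3.

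**Figure D5:**
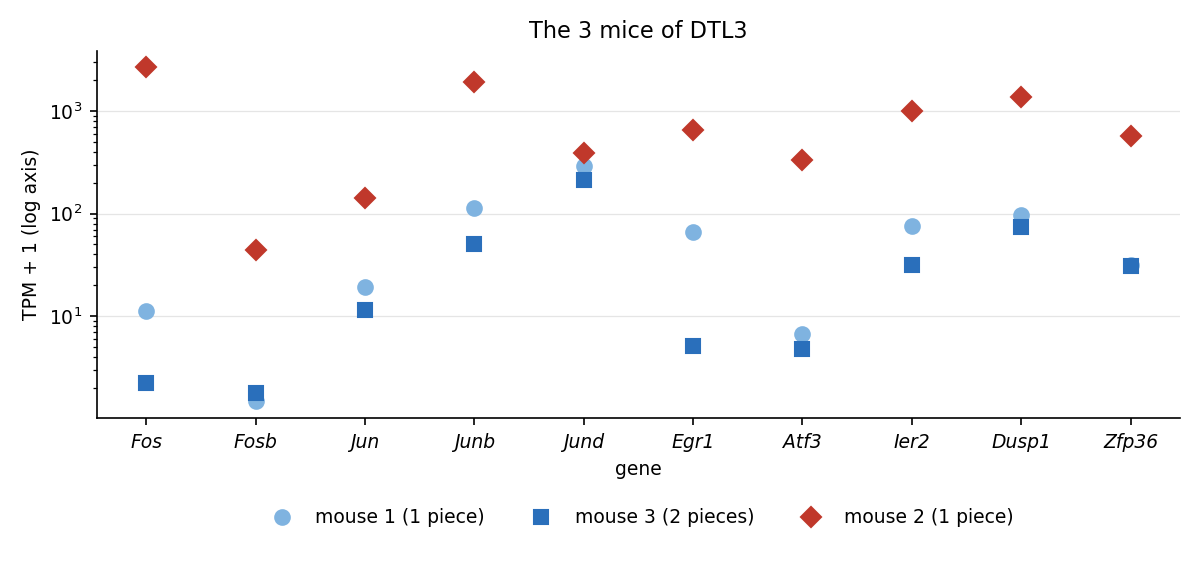
TPM + 1 on a log axis for the 10 members in the 3 mice of DTL3; the value of mouse 3 is the mean of its pieces on the log scale. Mouse 2 (red) lies above the other mice in every member, by the smallest margin in Jund (392 against 293 TPM at most).

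Marker sums were read in the same sample. Of the descending thin limb markers, the water channel Aqp1 was at 11152 TPM in it, against 11708 and 12081 in the other DTL3 mice, and the urea transporter Slc14a2 at 3.61 TPM, against 8.32 and 28.4, a log2 difference of -1.74. Endothelial markers summed to 769 against 966 to 1805 TPM, leukocyte markers to 20.0 against 10.8 to 21.4, and markers of connecting tubule and collecting duct principal cells to 22.2 against 6.13 to 18.8. Heat shock genes summed to 3214 TPM against 1952 to 2137. Tubule injury genes summed to 15477 against 10251 to 11536, and nearly all of that was Cryab, at 15189 TPM against 9674 and 11048 in the other mice. Of the 9 injury genes tested, 1 was higher by at least 1 on the log2 scale, Clu at 1.31, 1 was lower, Spp1 at -2.68, and the median difference was -0.07. It held 22250 genes at 1 TPM or more, against 22645 to 24500. The part of these measures in the members' levels was not tested.

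Pieces of 1 mouse also differed in some members. Fos differed by at least 1 on the log2 scale between the pieces of 11 of 36 mice, Egr1 in 13, Junb and Atf3 in 8 each, and Jund in none (0 of 36). Of the 11 mice, 8 had all 9 other members highest in the same piece as Fos, while DTL2 mouse 1 had 2 of the 9 there. Of 23 other mice with unequal Fos, 2 had all 9 there. Over these 23 a median of 5 of the 9 were highest in the same piece as Fos. In glomerulus mouse 2, Fos was 9.2 TPM in piece a and 890 in piece b, a ratio of 96.7. In MTAL mouse 3 it was 0.45 and 38.5 TPM, a ratio of 85.5, and in DTL2 mouse 3 it was 0.79, 2.92 and 94.0 TPM. In the first 2 of these mice all 9 other members were highest in the same piece, and in DTL2 mouse 3 it was 5 of 9. In MTAL mouse 3, endothelial markers summed to 539 TPM in the lower and 255 in the higher piece, and leukocyte markers to 477 and 287. In DTL2 mouse 3, in the order of Fos above, the pieces held 17220, 21878 and 21244 genes at 1 TPM or more and 247, 126 and 27.8 TPM of leukocyte markers. Their part in the members' levels was not tested.

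The difference of piece b from piece a was compared between Fos and each other member over 36 mice in the same way. Pearson's r was 0.90 for Zfp36, 0.89 for Junb, 0.87 for Egr1, 0.79 for Ier2, 0.72 for Jun and 0.68 for Dusp1, with adjusted permutation p of 1.8e-05, and 3e-05 for Dusp1. Spearman's rho was 0.77, 0.80, 0.69, 0.65, 0.68 and 0.67, each with an adjusted permutation p of 3e-05. For Fosb r was 0.71 (rho 0.65), for Atf3 0.64 (rho 0.32) and for Jund 0.56 (rho 0.54), with adjusted permutation p of 0.000219, 0.000304 and 0.00038 for r and 5.14e-05, 0.0563 and 0.00108 for rho. Without glomerulus mouse 2 and MTAL mouse 3, r ran from 0.37 for Atf3 to 0.90 for Junb, so the relation with Atf3 rested largely on those mice.

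In the glomerulus piece b was the higher in Fos in all 3 mice: 417 against 151 TPM in mouse 1, 890 against 9.2 in mouse 2 and 144 against 49.7 in mouse 3. The same pieces differed in tubule transcripts. The 4 proximal tubule markers summed to 59.3, 93.0 and 40.4 TPM in piece a and to 11, 4.5 and 8.1 in piece b, and leukocyte markers to 895, 1124 and 883 TPM in piece a and 327, 338 and 893 in piece b. Heat shock genes summed to 1555, 799 and 1327 TPM in piece a and to more in piece b of each mouse, 1708, 900 and 2151, and the other early-response genes to 5325, 5132 and 6122 in piece a and 6564, 7097 and 6841 in piece b. Podocyte markers summed to 8549, 9454 and 10308 in piece a and 9108, 10117 and 10463 in piece b. The part of these measures in the members' levels was not tested.

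Over the 53 mice the deviation in Fos was set beside measures of each sample, as a description. Pearson's r was 0.19 with the sum of heat shock genes, 0.23 with that of tubule injury genes, 0.11 with that of upstream regulators and -0.03 with the mitochondrial share. It was -0.24 with the number of genes at 1 TPM or more, -0.21 with the sum of proximal tubule markers, -0.07 with leukocyte markers, -0.30 with fibroblast and muscle markers and -0.37 with intercalated cell markers. It was -0.28 with the number of olfactory and vomeronasal receptor genes at 1 TPM or more, and between -0.21 and 0.16 with the remaining 8 measures. It was 0.48 with the sum of the other early-response genes, and 0.15 without DTL3 mouse 2, so that value rested on this mouse. Without it r was 0.03 with heat shock genes, 0.10 with tubule injury genes, 0.15 with upstream regulators, -0.36 with intercalated cell markers, -0.35 with the number of these receptor genes, and between -0.27 and 0.23 with the others.

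Of the 37 other early-response genes listed, 36 passed the filter and 29 of these differed between mice of 1 segment, where 52.1% of all genes did. The largest F belonged to Sgk1, a kinase induced by aldosterone and osmotic change, to Gadd45g, a stress-induced growth regulator, and to Trib1, Arc and Errfi1. The 3 most abundant, Sgk1, Ctgf and Gadd45g, had maps unlike that of Fos. Sgk1 was highest in IMCD at 1481 ± 323 TPM (n = 3), Ctgf, a secreted matricellular protein, in the glomerulus at 3204 ± 299 (n = 3), and Gadd45g in CTAL at 440 ± 196 (n = 5). The proximal tubule was lower in 23 of the 36 genes and higher in 2, with a median of -1.54, where 23.8% of all genes were called. Arc, best known from neurons, was at -3.33 (SE 0.28, adjusted p 2.49e-14), and Errfi1, an inhibitor of the EGF receptor, was higher, at 2.73 (SE 0.12, adjusted p 6.30e-25). The median SD between mice was 0.49 for these 36 genes, against 0.93 for the members.

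Of the 20 upstream regulators, all passed the filter and 13 differed between mice, where 52.1% of all genes did. The median SD between mice was 0.26, equal to that of genes averaging at least 10 TPM, and the SD between segments 0.81. The kinases Map2k2 and Map2k1 were among the most abundant, at means of 154 and 81.4 TPM over the 53 mice. The largest F between mice belonged to Srf (serum response factor), Rps6ka1, Elk3, Mapk14 and Crem. In the contrast of proximal against other tubule 14 were lower, where 23.8% of all genes were called in either direction, Elk3 at -2.67 and Rps6ka1, a ribosomal S6 kinase, at -2.36 among them, while Srf, at -0.69, stayed under a log2 difference of 1. Rps6ka1 was 126 ± 5.62 TPM in CCD (n = 5) and 5.98 ± 1.44 in PTS3 (n = 3).

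Of the 11 heat shock genes, 10 differed between mice, where 52.1% of all genes did, with a median SD between mice of 0.35. Hspa8, the constitutive HSP70 and the most abundant, had the largest F, and Hsp90aa1 and Hspa1b followed in abundance. Hspa1b, an inducible HSP70, was highest in ATL at 967 ± 287 TPM (n = 4), against 75.8 ± 8.45 in CCD (n = 5). Of the 10 tubule injury genes 9 passed and 5 differed between mice (Cdkn1a, Clu, Cryab, Vcam1 and Lcn2), a share close to the 52.1% of all genes. Over the 53 mice the most abundant were Spp1 (3594 TPM), Cryab (3174) and Clu (483), so the sums over this list weigh these genes most and are no measure of injury. The injury marker Havcr1 averaged 1.09 TPM over the 53 mice, and Krt20 did not pass the filter.

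Outside the 10 members, the genes most like Fos were searched among 8891 named genes averaging at least 10 TPM. By deviations of the 53 mice from their segment mean they were Ppp1r15a (r of 0.76), a phosphatase subunit of the stress response, Btg2 (0.72), an antiproliferative gene, Nr4a1 (0.67), an orphan nuclear receptor, Arc (0.66), Gdf15 (0.65) and Lmbr1 (0.59). Each of these r lay below that of Ier2, Egr1, Junb, Zfp36 and Jun. They were 0.62, 0.52, 0.57, 0.38, 0.52 and 0.27 in turn without DTL3 mouse 2. The 6 highest were then Ppp1r15a, Nr4a1, Sdhd (0.53), Gde1 (0.52), Ggh (0.52) and Btg2, so Arc, Gdf15 and Lmbr1 were no longer among them. By the 15 segment means, where Egr1 reached 0.97 and Ier2 0.94, they were Fam118b (0.96), Plcg2 (0.92), Nr4a1 (0.92), Sowahc (0.91), Gata2 (0.90) and Cav2 (0.90), and these r ran from 0.90 to 0.95 without DTL3 mouse 2, where Spink8 and Pde8b (both 0.93) took the places of Sowahc and Gata2 among the 6 highest. Plcg2 was 201 ± 20.1 TPM in CCD (n = 5) and 1.27 ± 0.30 in PTS3 (n = 3). Nr4a1 was the only gene on both lists, with or without DTL3 mouse 2, at 80.3 ± 82.5 TPM in CNT (n = 3), 66.4 ± 65.8 in CCD (n = 5) and 0.19 ± 0.18 in PTS3 (n = 3).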

How the data were processed

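RNA of 93 microdissected samples was sequenced after SMARTer V4 cDNA synthesis and Nextera XT library preparation, per the labels. TPM were deposited by the authors in 1 table, and the submitters' processing notes name STAR 2.5.4a and RSEM 1.3.0. The genome build is not given in the sources used here. Glomerulus columns hold 1 decimal and tubule columns 2. The name of 1 PTS2 column fitted no title, so it entered as an unnumbered mouse of that segment, the authors' 14 mean columns were not used, and 3 single-cell samples were not analysed. Column totals were 999998.6 to 1000190.3 TPM, and TPM keep no depth, so no counting interval is given.

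Pieces were averaged as log2(TPM + 1), and the mouse was the replicate. Genes with a mean of at least 1 TPM in at least 3 mice were kept (33793). limma 3.58.1 in R 4.3.3 (lmFit, eBayes with trend, Benjamini-Hochberg over all genes, adjusted p under 0.05) was fitted to mouse means for groups and to samples for mice (38 contrasts, 40 residual degrees of freedom from pieces). Calls in contrasts also needed a log2 difference of at least 1. Such differences understate changes of low genes. The tests were also run on simulated data, and the outcome is not given here. Labels do not say more of the replicates than the mouse number, so p-values among groups and in contrasts measure the spread between these mice. Those of the test between mice rest on the spread between pieces, and whether pieces were dissected separately is not given. Correlations used Python 3.11.15 and numpy 2.4.6.

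The members and lists were chosen with earlier results of these data known. Named were the members, the 3 most abundant and up to 5 largest-F genes of each list, and the 6 genes most like Fos on each measure, leaving out predicted (Gm, Rik), mitochondrial, ribosomal protein and pseudogene names. Values of 2 listed genes are not reported here. Hspa1a, Havcr1 and Krt20 are also given, chosen after their values were seen. The filter was first run on log2 means (32879 genes) and changed after those results were seen. Alternatives covered pseudocount, filter, scaling, averaging of pieces, leaving out mice and the mouse number as a block. Same-numbered mice of different segments did not deviate together (median r 0.000185 over 290 pairs), so numbers were not used as pairs.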

Additional observations from a re-analysis of the deposited data

Results flagged for a closer look

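In groups of 4 or 5 mice the highest or lowest mouse was compared with its neighbour, for 10 members in 5 groups, which makes 50 sets of which chance would mark about 1 in 20. In 3 of them a mouse stood apart. Fos in PTS2 was 2.34 TPM in the mouse without a number, against 0.18 to 0.545 in the other 4. Atf3 in PTS2 was 1.55 TPM in mouse 1, against 0.145 to 0.295. Atf3 in CCD was 11.7 TPM in mouse 5, below the 16.5 to 18.7 of the other 4 mice.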

How the results depend on the processing

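All 10 members differed among groups and between mice under every alternative run for that test, and no called difference changed direction. The test between mice was not run with pieces averaged as TPM, 93 samples as independent or the replicate block, nor the test among groups without the glomerulus and DTL1. Counts moved by over 1.5 times in these cases. Quantile normalization gave 3 for glomerulus against tubule and 1 for DTL2 against PTS3. For PTS2 against PTS1, a pseudocount of 5, median ratio rescaling and quantile normalization gave 0, and 93 samples as independent 2. For ATL against DTL3, no filter, median ratio rescaling, quantile normalization, 93 samples as independent, the replicate block and ATL mice 2 and 3 alone gave 2 (Fosb and Atf3 in the last, Jun and Atf3 in the others). For MTAL against ATL, ATL mice 4 and 6 alone gave 1. For CNT against DCT, no filter, median ratio rescaling and quantile normalization gave 0, a filter at 5 TPM and pieces averaged as TPM 2, and 93 samples as independent 7. For IMCD against OMCD, no filter gave 0 and 93 samples as independent 3. The cause was not tested. The replicate block gave 9 for proximal against other tubule and, besides ATL against DTL3, changed no other count. Medians over all genes moved with scaling, for DTL1 against PTS3 from 1.33 to 1.01 (median ratio) and 0.17 (quantile).

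Leaving out 1 mouse at a time gave 2 to 7 for the glomerulus, 4 to 5 for the inner and 4 for the outer medulla, 3 to 4 for the thin limbs and 9 to 10 for the proximal tubule. In neighbouring steps, in the order of the report, it gave 0 to 1 (PTS2), 6 to 7 (DTL1 against PTS3), 5 to 6 (DTL2 against PTS3), 2 (DTL2 against DTL1), 0 to 8 (DTL3), 1 to 7 (ATL), 1 to 3 (MTAL), 0 to 3 (CNT), 3 to 7 (OMCD) and 0 to 1 (IMCD). The median SD of the members stayed at 0.47 to 0.54 between pieces, 0.75 to 0.94 between mice and 1.58 to 1.72 between segments. Taking each called difference of a member under each of 13 other settings as 1 pair, 690 of 749 pairs stayed called, 59 did not, and 45 pairs not called in the reported fit became called. With each of 53 mice left out in turn, 3012 of 3074 pairs stayed called, 62 did not and 35 became called. Pearson's r with Fos fell to 0.41 (Dusp1, mouse deviations) and 0.37 (Atf3, piece differences) without the 2 mice farthest out in Fos.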
